A study of Mus musculus with 12 samples.

Results

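The gene group described here holds 46 genes of the lysosome of cultured mouse bone marrow cells: subunits of the vacuolar proton pump (V-ATPase), lysosomal membrane proteins and lysosomal hydrolases with their activators. The members are a list of symbols chosen by function, with earlier results of these data known, and each matched 1 Ensembl gene identifier among the 41388 genes counted. All 46 passed the filter on low counts, as did 13030 genes in all. By role they comprise 8 subunits of the V1 sector, 7 genes of the V0 sector and its accessory proteins, 6 lysosomal membrane proteins, 10 glycosidases, 5 sulfatases and sulfamidase, 5 lipid hydrolases and activators, and 5 peptidases and progranulin.

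The study profiled polyadenylated RNA from 12 libraries of C57BL/6 mouse bone marrow cultures, 3 in each of 4 groups. The cells grew for 5 days in alpha MEM with 10% FBS and were then detached, replated and kept for 2 days in medium with 2% M-CSF, without RANKL or with RANKL at 50 ng/ml. Flox BMM denotes cells of the genotype labelled Flox kept in M-CSF alone (labelled bone marrow macrophages), and flox OC denotes the same genotype kept in M-CSF and RANKL (labelled osteoclast). KO BMM and KO OC are the corresponding cultures of the genotype labelled LysM Cre positive (KO), in which Asxl2 is the target of a Cre recombinase made from the Lyz2 locus of myeloid cells. M-CSF was present in all 4 groups, and no group had Cre with an intact Asxl2, so effects of Cre and of the loss of Asxl2 cannot be told apart. Whether libraries of one group are separate mice or separate dishes is not stated, so a p-value here reflects only library-to-library spread, which could be technical. Asxl2 itself ranged from 89.8 to 95.6 CPM (counts scaled to a common library total) in flox BMM and from 71.1 to 75.6 in flox OC, against 14.9 to 15.4 in KO BMM and 12.7 to 15.1 in KO OC.

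Lysosomes break down proteins, glycans and lipids with hydrolases that need an acid lumen, and the V-ATPase supplies that acid by coupling ATP hydrolysis in the cytosolic V1 sector to proton transport through the membrane V0 sector. Macrophages use this machinery for digestion after uptake. Osteoclasts, which form from the same precursors under M-CSF and RANKL, carry the pump to the plasma membrane facing bone, where the acid dissolves mineral and secreted hydrolases digest matrix. Many genes of the system carry copies of the E-box CACGTG, the core of the element bound by TFEB, TFE3 and MITF, in their promoters.

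The RefSeq table for GRCm38.p6 held a promoter entry (250 bases before to 50 bases after the start) for 40 of the 46 members. The motif TCACGTG, read on either strand, occurred in 14 of these 40 entries (35%), in 4.29% of 27025 entries of all genes and in 7.09% of the 9623 entries of tested genes. The shorter CACGTG, which each copy of the longer motif contains, was likewise in 14 of 40 entries (35%), against 8.09% of all entries and 11.9% of those of tested genes. A match is a description of the letters and not of bound protein. Windows around copies outside annotated exons are shown 5′ to 3′ on the gene's strand for 7 members whose levels differ in behaviour below, with the motif in capitals: Atp6v1a (minus strand, chr16:44139364-44139411), Atp6v0b (minus strand, chr4:117887334-117887386), Lamp1 (plus strand, chr8:13159079-13159134), Gaa (plus strand, chr11:119267802-119267848), Glb1 (plus strand, chr9:114401009-114401055), Lgmn (minus strand, chr12:102439116-102439162) and Dpp7 (minus strand, chr2:25356379-25356426). The Atp6v1a and Lgmn windows precede the RefSeq start but lie inside the longer Ensembl gene.
Atp6v1a: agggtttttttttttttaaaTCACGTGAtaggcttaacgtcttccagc
Atp6v0b: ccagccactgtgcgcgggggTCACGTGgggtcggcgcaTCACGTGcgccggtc
Lamp1: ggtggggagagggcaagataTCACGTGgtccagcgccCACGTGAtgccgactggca
Gaa: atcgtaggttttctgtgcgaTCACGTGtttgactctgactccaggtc
Glb1: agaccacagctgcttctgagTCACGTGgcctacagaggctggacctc
Lgmn: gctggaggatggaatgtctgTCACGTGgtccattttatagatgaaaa
Dpp7: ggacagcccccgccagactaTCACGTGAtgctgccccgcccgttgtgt
Of these 7 members, Atp6v0b and Dpp7 rose with RANKL and the other 5 fell with it, though the Dpp7 rise was lost with DESeq2 and with no filter on low counts. Of all 14 members with the motif, 11 fell with RANKL in flox cells, where 37.8% of all tested genes fell.

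RANKL lowered most of the system in flox cells. Of the 46 members, 40 were lower in flox OC than in flox BMM, 4 were higher and 2 did not pass (edgeR quasi-likelihood test on raw counts, Benjamini-Hochberg adjusted p under 0.05 over all tested genes). Across all tested genes 37.8% were called lower and 37% higher. The median log2 fold change of the members was -0.48, a fall of 1.39-fold, where that of all tested genes was 0.00, and 7 members fell more than 2-fold. DESeq2, and edgeR with no filter on low counts, each called 2 members higher. The 3 libraries of one culture lay wholly above or below the 3 of the other for 44 members, against 75.2% of all tested genes. In KO cells the counts were again 40 lower, 4 higher and 2 not passed, with 35% of all tested genes called lower and 35.5% higher, a member median of -0.48, and 44 members without overlap against 73.4% of all genes. The flox and KO comparisons use separate libraries. In both, 39 members fell and 3 rose (Atp6v0b, Atp6v0c and Dpp7), and Ids was called in opposite directions. Levels in a bulk culture cannot separate fewer cells of a type from less RNA per cell.

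These directions depend in part on how libraries were scaled. TMM, the scaling used throughout, assumes that most genes do not change and put the median of all genes near 0. With library size alone that median moved to 0.16 in flox and 0.14 in KO cells, the split in flox cells became 8 higher and 32 lower members, and that in KO cells became 6 higher and 39 lower. Of all 13030 tested genes, this scaling called 6321 higher and 3737 lower in flox cells. In KO cells it called 5972 higher and 3429 lower. The members' medians stayed below 0 at -0.31 and -0.34, further from the median of all genes than from 0.

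Most of the system was slightly higher in KO cells, in OC mainly outside the pump genes. In BMM, 30 members were higher in KO than in flox, 9 were lower and 7 did not pass, where 19.3% of all tested genes were called higher and 20.6% lower. The member median was 0.11 (1.08-fold) against 0.00 for all genes, no member changed more than 2-fold, and 41 members had no overlap between genotypes, against 46.6% of all genes. In OC, 28 were higher, 4 lower and 14 did not pass, where 21.4% of all tested genes were called higher and 19.9% lower. The member median was 0.16 (1.11-fold) against 0.01 for all genes, and 35 members had no overlap, against 51.3% of all genes. By role, 1 of 8 V1 subunits was higher and 1 lower in OC (median -0.03). Of 7 V0 and accessory genes, 3 were higher and 1 lower there (median 0.03). The OC medians were 0.13 for membrane proteins, 0.22 for glycosidases, 0.23 for sulfatases, 0.12 for lipid genes and 0.23 for peptidase and progranulin genes. Higher in KO in both cultures were 21 members, lower in both were Atp6v0b, Cd63 and Gm2a, and Atp6v0a1, Man2b1 and Ids were called lower in BMM and higher in OC. DESeq2 called 25 members higher and 7 lower in BMM, and 25 higher and 4 lower in OC. Among 23565 genes it called 1820 higher and 1951 lower in BMM, and 1929 higher and 1880 lower in OC. The RANKL comparison in flox cells and the genotype comparison in OC share the flox OC libraries, so their values are given side by side below and not correlated.

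Cell type markers moved with the same groups, and their part in the member changes was not tested. All 12 macrophage markers fell with RANKL in flox cells, and their summed level ranged from 36581 to 37529 CPM in flox BMM, 31684 to 32496 in KO BMM, 15433 to 15796 in flox OC and 16476 to 16760 in KO OC. Lyz2, the locus that carries Cre in KO cells, made up most of this sum, at 21808 CPM in flox BMM, 19567 in KO BMM, 10631 in flox OC and 11674 in KO OC (means, n = 3). With KO, 11 of the 12 fell in BMM, while 8 rose and 3 fell in OC. Of 9 tested osteoclast markers, 8 rose with RANKL in each genotype and 8 fell with KO in OC. The summed level of the 11 listed was 234 to 243 CPM in flox BMM, 206 to 210.1 in KO BMM, 745 to 767 in flox OC and 380.2 to 397 in KO OC, with Calcr and Oscar under 1 CPM in every library. Stromal and osteoblast markers fell with KO in both cultures (7 of 7 tested), from 169 to 188 CPM in flox BMM to 53.7 to 60.4 in KO BMM, and from 144 to 147 in flox OC to 43.1 to 53.5 in KO OC, with Bglap, Alpl and Lum under 1 CPM in every library. Summed neutrophil markers were at 77.6 to 82.1 CPM in flox BMM, 25.9 to 27.9 in KO BMM, 33.5 to 35.4 in flox OC and 10.2 to 11.9 in KO OC. Most of this sum was Mmp8 (mean 72.9 CPM in flox BMM and 22.5 in KO BMM), while Ly6g, Mpo, Elane and Camp were under 1 CPM in every library. Summed megakaryocyte and platelet markers were at 344 to 408 CPM in flox BMM, 48.0 to 52.2 in KO BMM, 134 to 141 in flox OC and 15.2 to 16.2 in KO OC. This sum was nearly all Pf4 (mean 374 CPM in flox BMM), while Itga2b, Gp9 and Gp1bb were under 1 CPM in every library. Libraries held 18489873 to 21667237 counts.

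**Figure D1:**
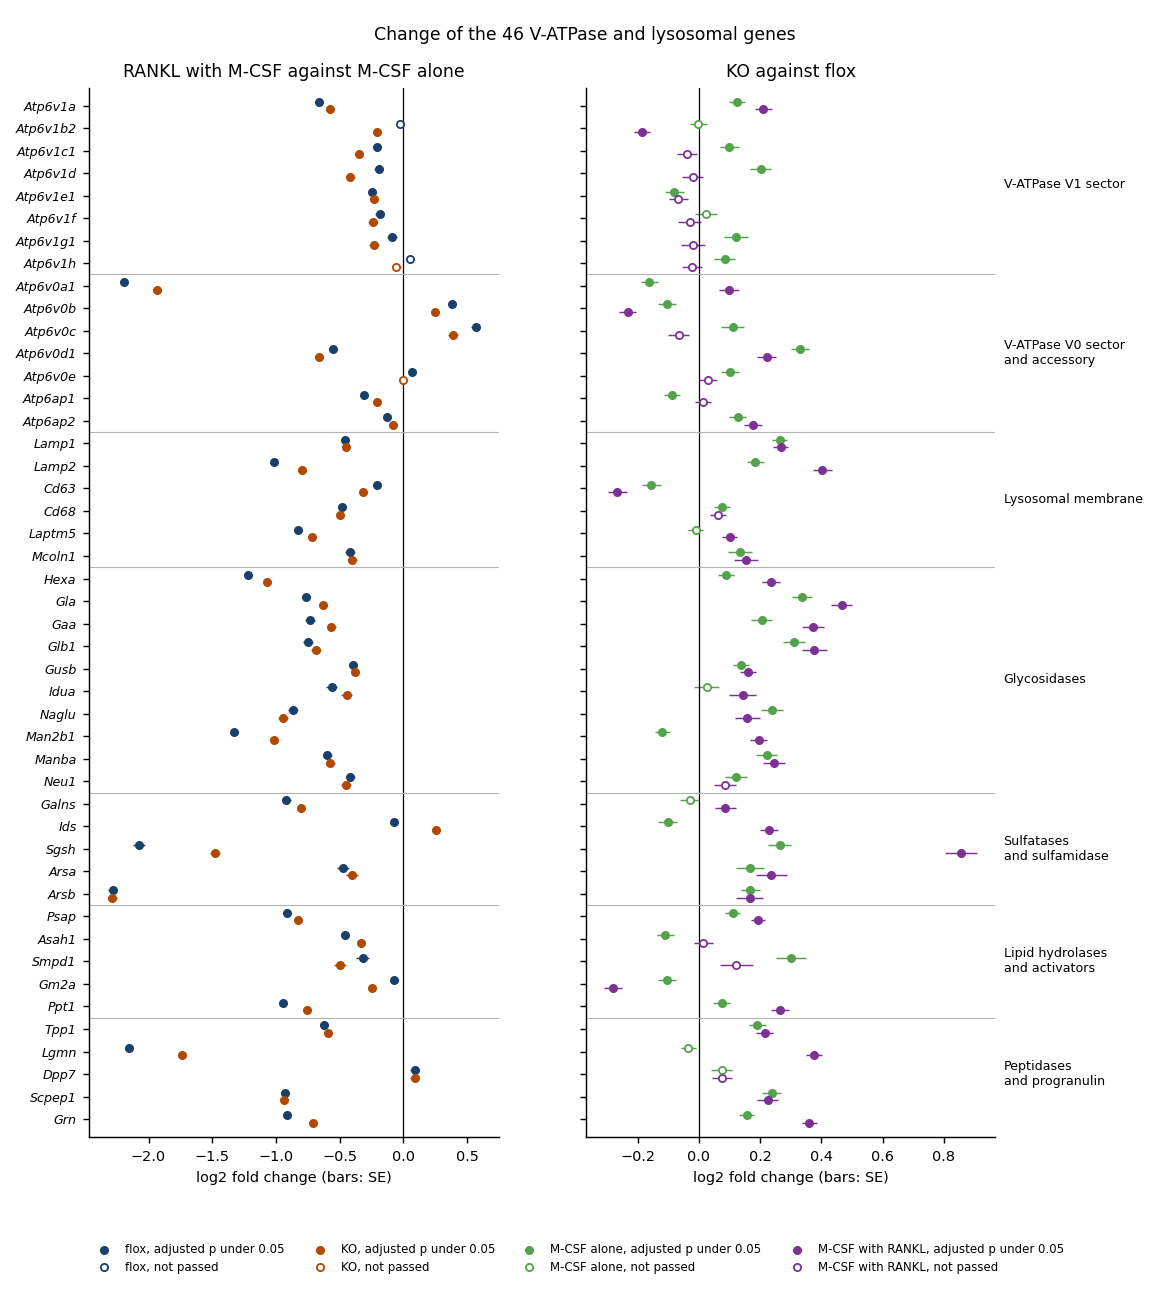
Log2 fold changes of the 46 members (bars, SE from edgeR), grouped by role: RANKL with M-CSF against M-CSF alone in flox and KO cells (left), and KO against flox in each culture (right). Filled points passed an adjusted p of 0.05. Points at the left of 0 predominate in the left panel, where 40 members fell in each genotype, and points at the right of 0 in the right panel, on a much narrower scale.

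The combined share of the counts uses library totals alone and no TMM factor. The 46 genes held 2.76% ± 0.0289 of all counts in flox BMM (SD, n = 3) and 3.01% ± 0.0266 in KO BMM. In OC they held 1.86% ± 0.0121 in flox and 2.08% ± 0.00474 in KO. The 4 groups did not overlap. The peptidase and progranulin genes held 0.512% ± 0.00707 of counts in flox BMM and 0.263% ± 0.0016 in flox OC, while the V1 subunits held 0.187% ± 0.00295 and 0.175% ± 0.00145. The V1 genes lost a smaller part of their share than the peptidase genes did.

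**Figure D2:**
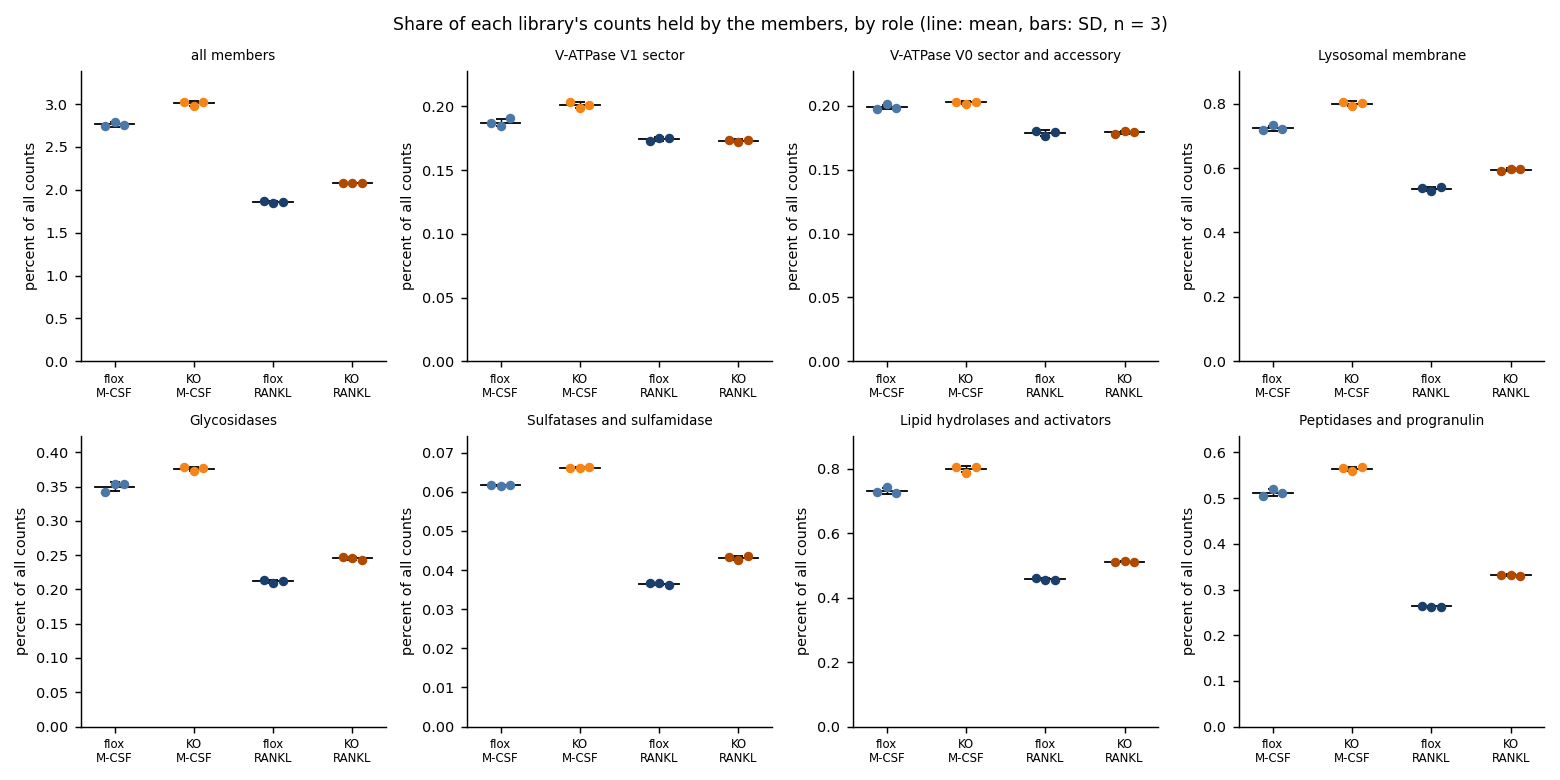
Percent of each library's counts held by all members and by each role (points, libraries; line and bars, mean and SD, n = 3). The share of all members is lower in the 6 RANKL libraries than in the 6 M-CSF libraries, and the drop is small for the 2 V-ATPase panels.

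Among the roles, the 2 groups of pump genes had the RANKL medians nearest 0 in flox cells. In flox cells 6 of 8 V1 subunits fell, with a median log2 fold change of -0.19, and Atp6v1b2 and Atp6v1h did not pass. Of the V0 and accessory genes, 4 of 7 fell and 3 rose, with a median of -0.13. Among all tested genes, 37.8% fell and 37% rose in this comparison. All 6 membrane proteins fell (median -0.47), as did all 10 glycosidases (-0.74), all 5 sulfatases (-0.92) and all 5 lipid genes (-0.46), and 4 of 5 peptidase and progranulin genes (-0.91). Library size alone turned Atp6v1b2, Atp6v1g1, Atp6ap2, Ids and Gm2a positive in flox cells, and with it the flox falls of Atp6v1c1, Atp6v1d, Atp6v1f and Cd63 did not pass, so that 2 V1 subunits (Atp6v1a and Atp6v1e1) stayed called lower. The Atp6v1g1 fall was also lost with DESeq2, with a stricter filter, with only the groups compared, and without flox BMM library 1 or 2 or flox OC library 2 or 3.

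In the V1 sector, Atp6v1a, the catalytic subunit that binds ATP, had the largest RANKL fall. It fell by 0.66 in flox and 0.57 in KO cells on the log2 scale, and KO cells were higher in BMM (0.12) and OC (0.21). Atp6v1b2, which encodes the B subunit (ENSMUSG00000006273, chromosome 8, 69088646 to 69113711; all coordinates are GRCm38), was at 107, 107 and 106 FPKM in the flox BMM libraries, 109, 106 and 106 in KO BMM, 102, 108 and 106 in flox OC and 93.4, 91.6 and 92.3 in KO OC. Changes, and differences between changes, are on the log2 scale throughout. Levels are FPKM, TMM-scaled CPM divided by exon length in kilobases. The 3 KO OC libraries lay below all the others, and the remaining groups overlapped. RANKL lowered it in KO cells (on the log2 scale -0.21, edgeR adjusted p = 2.04e-09 and SE 0.027), while the flox value did not pass (-0.02, edgeR adjusted p = 0.407 and SE 0.027). The difference between these RANKL effects passed the test (-0.18, edgeR adjusted p = 0.000206 and SE 0.038). With library size alone the flox value was a rise that passed (0.14, edgeR adjusted p = 2.65e-06).

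Atp6v1d, the D subunit of the central stalk (ENSMUSG00000021114, chromosome 12, 78842989 to 78861638), was at 66.8, 67.2 and 69.97 FPKM in the flox BMM libraries, 78.3, 77.4 and 78.8 in KO BMM, 58.7, 61.3 and 58.5 in flox OC and 57.8, 58.9 and 59.2 in KO OC. KO BMM libraries were highest, while flox OC and KO OC overlapped. KO exceeded flox in BMM (log2 fold change 0.20, edgeR adjusted p = 3.7e-06 and SE 0.034), but the OC value was -0.02 (edgeR adjusted p = 0.685). RANKL lowered it by 0.19 in flox and by 0.42 in KO cells, and these falls differed by -0.22 (edgeR adjusted p = 0.000595). The flox call was lost with library size alone. The other V1 subunits, Atp6v1c1, Atp6v1e1, Atp6v1f, Atp6v1g1 and Atp6v1h, had genotype values between -0.08 and 0.12 in BMM and between -0.07 and -0.02 in OC, and none of these 5 passed in OC. In BMM, Atp6v1c1, Atp6v1g1 and Atp6v1h were called higher and Atp6v1e1 lower. The calls of Atp6v1e1, Atp6v1g1 and Atp6v1h were lost with DESeq2 and in other settings. That of Atp6v1c1 was lost without KO BMM library 1.

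The V0 sector held the sharpest contrast within the pump. Atp6v0a1, which encodes the a1 form of the V0 a subunit (ENSMUSG00000019302, chromosome 11, 101009452 to 101063719), was at 68.3, 70.6 and 66.5 FPKM in the flox BMM libraries, 60.8, 60.8 and 62.1 in KO BMM, 15.01, 15.3 and 14.6 in flox OC and 15.8, 16.3 and 15.96 in KO OC. The 6 RANKL libraries lay far below the 6 M-CSF libraries. RANKL lowered it 4.58-fold in flox cells (on the log2 scale -2.19, edgeR adjusted p = 3.24e-46 and SE 0.031) and 3.82-fold in KO cells (-1.93, edgeR adjusted p = 8.63e-44 and SE 0.031). KO was lower than flox in BMM (-0.16, edgeR adjusted p = 3.53e-06) and higher in OC (0.10, edgeR adjusted p = 0.0158). The OC call was lost with DESeq2, without flox OC library 3 and without KO OC library 2.

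Atp6v0b and Atp6v0c, which encode proteolipids of the rotating V0 ring, went the opposite way. Atp6v0b (ENSMUSG00000033379, chromosome 4, 117884326 to 117887333) was at 139, 144 and 135 FPKM in the flox BMM libraries, 128, 130.4 and 131 in KO BMM, 182, 177 and 185 in flox OC and 154, 155 and 154 in KO OC. All 6 RANKL libraries were above all 6 M-CSF libraries. It rose by 0.38 in flox cells (SE 0.028, edgeR adjusted p = 8.91e-17) and by 0.25 in KO cells (SE 0.028, edgeR adjusted p = 9.5e-11), and was lower in KO in BMM (-0.10) and OC (-0.23). The BMM fall was lost without flox BMM library 2. Of its exon bases, 11.8% are shared with Gm12841.

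Atp6v0c (ENSMUSG00000024121, chromosome 17, 24163866 to 24169702) was at 27.7, 26.7 and 27.5 FPKM in the flox BMM libraries, 29.2, 28.2 and 31.02 in KO BMM, 40.7, 39.1 and 41.5 in flox OC and 37.03, 39.8 and 39.1 in KO OC. The OC libraries were again higher than the BMM libraries. It rose by 0.57 in flox cells (SE 0.037, edgeR adjusted p = 4.14e-19) and by 0.39 in KO cells (SE 0.036, edgeR adjusted p = 1.56e-13), and the rises differed by -0.18 (edgeR adjusted p = 0.00924). That difference was lost without KO BMM library 3. KO raised Atp6v0c in BMM (0.11, edgeR adjusted p = 0.0164), with -0.07 in OC (edgeR adjusted p = 0.131). The BMM call was lost with DESeq2 and without flox BMM library 2 or KO BMM library 3. The copy Atp6v0c-ps2 had mean levels of 29.5 to 36.7 CPM in the 4 groups, against 92.4 to 136.7 for Atp6v0c, so the division of reads between them is uncertain.

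Atp6v0d1, which couples the central stalk to the ring (ENSMUSG00000013160, chromosome 8, 105524465 to 105566047), was at 117, 117 and 109 FPKM in the flox BMM libraries, 144, 144 and 144 in KO BMM, 79.99, 77.9 and 76.8 in flox OC and 90.4, 89.9 and 93.3 in KO OC. The 4 groups did not overlap. Among the members it had the second-largest KO rise in BMM (log2 fold change 0.33, edgeR adjusted p = 4.43e-13 and SE 0.030), and in OC the rise was 0.22 (edgeR adjusted p = 1.02e-07). RANKL lowered it by 0.55 in flox and 0.66 in KO cells. Atp6v0e, a small V0 subunit (ENSMUSG00000015575, chromosome 17, 26676396 to 26699644), was at 57.4, 58.3 and 59.3 FPKM in the flox BMM libraries, 62.4, 63.8 and 61.5 in KO BMM, 59.8, 60.3 and 63.7 in flox OC and 62.9, 62.1 and 62.3 in KO OC. Its libraries lay close together in all groups, with flox BMM lowest. Its rise with RANKL in flox cells (0.07, edgeR adjusted p = 0.0345 and SE 0.030) was lost with DESeq2, with no filter on low counts, and without flox BMM library 1, flox BMM library 2 or flox OC library 3. KO raised it in BMM (0.10, edgeR adjusted p = 0.00594), with 0.03 in OC (edgeR adjusted p = 0.477). The accessory genes Atp6ap1 and Atp6ap2 fell with RANKL by 0.31 and 0.13 in flox cells and by 0.21 and 0.08 in KO cells, and library size alone made both Atp6ap2 values positive.

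Paralogs of the a and d subunits outside the member list completed the V0 picture. Tcirg1, the a3 form known from the osteoclast ruffled border, was at 157, 174 and 169 FPKM in the flox BMM libraries, 159, 159.9 and 162 in KO BMM, 214, 208 and 199 in flox OC and 156, 163 and 155 in KO OC. Its flox OC libraries were the highest. Of the summed FPKM of the a forms, Atp6v0a1 made up 26.9% ± 0.834 in flox BMM and 6.08% ± 0.164 in flox OC (SD, n = 3), and Tcirg1 made up 65.5% ± 1.29 and 84.1% ± 0.125. In KO cells Atp6v0a1 went from 25.4% ± 0.0744 to 8.03% ± 0.11 and Tcirg1 from 66.7% ± 0.112 to 79.2% ± 0.19. Atp6v0a2, the a2 form, made up 7.51% in flox BMM, 9.79% in flox OC, 7.85% in KO BMM and 12.7% in KO OC. It rose with RANKL in flox cells (0.34, edgeR adjusted p = 6.19e-10) and in KO cells (0.43, edgeR adjusted p = 6.63e-13). Tcirg1 rose with RANKL in flox cells (on the log2 scale 0.31, edgeR adjusted p = 9.72e-12 and SE 0.031), its KO value was -0.02 (edgeR adjusted p = 0.547), and the difference passed (-0.34, edgeR adjusted p = 1.41e-07 and SE 0.044).

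Atp6v0d2, the d2 form induced in osteoclasts and needed for their fusion, was at 21.1, 21.7 and 20.6 FPKM in the flox BMM libraries, 10.5, 9.65 and 9.39 in KO BMM, 29.5, 28.3 and 29.9 in flox OC and 10.9, 10.9 and 11.1 in KO OC. Both KO groups lay below both flox groups. It fell with KO by 1.10 in BMM (SE 0.048, edgeR adjusted p = 2.29e-24) and by 1.42 in OC (SE 0.044, edgeR adjusted p = 3.14e-30), while its paralog Atp6v0d1 rose in both. The d2 form made up 15.6% ± 0.316 of the summed d FPKM in flox BMM, 6.398% ± 0.365 in KO BMM, 27.2% ± 0.699 in flox OC and 10.7% ± 0.102 in KO OC.

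**Figure D3:**
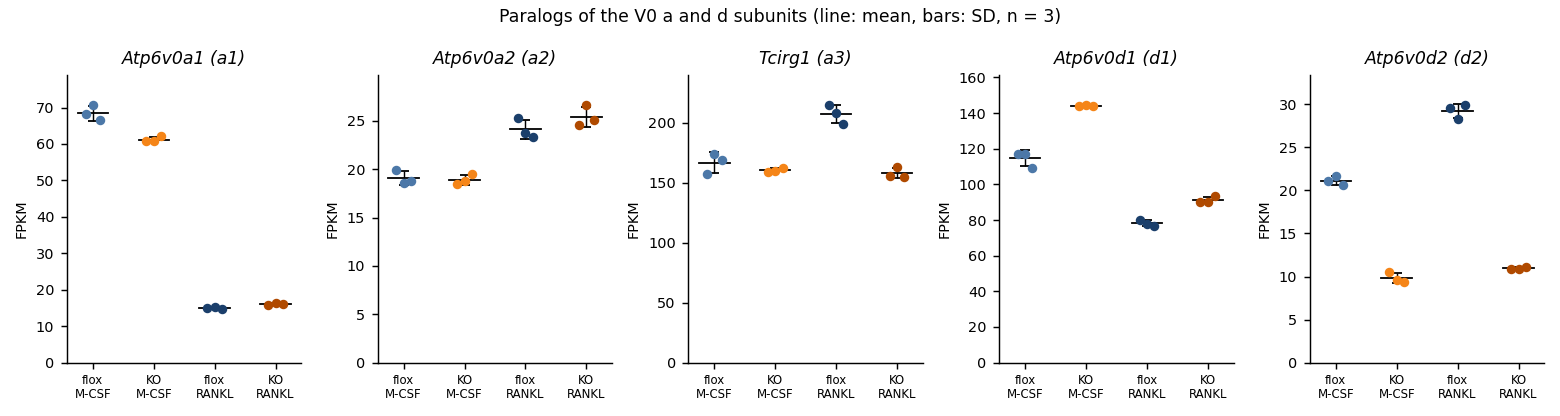
FPKM of the V0 a and d subunit paralogs in each library (points; line and bars, mean and SD, n = 3). Atp6v0a1 is far lower in the RANKL libraries, Tcirg1 is highest in flox OC, and Atp6v0d2 is lower in KO in both cultures while Atp6v0d1 is higher.

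Among membrane proteins, Lamp2, a heavily glycosylated lysosomal coat protein (ENSMUSG00000016534, chromosome X, 38401357 to 38456454), had the largest RANKL fall and the largest KO rise in OC. It was at 69.2, 70.1 and 74.7 FPKM in the flox BMM libraries, 83.8, 80.2 and 79.2 in KO BMM, 35.1, 35.4 and 35.6 in flox OC and 47.2, 45.6 and 47.5 in KO OC. KO libraries exceeded flox libraries in both cultures, and BMM exceeded OC throughout. RANKL lowered it 2.02-fold in flox (-1.01, edgeR adjusted p = 4.91e-33 and SE 0.029) and 1.73-fold in KO cells (-0.79, edgeR adjusted p = 9.05e-29 and SE 0.029). KO raised it by 0.18 in BMM (edgeR adjusted p = 5.32e-07) and by 0.40 in OC (edgeR adjusted p = 3.72e-16), a difference of 0.22 (SE 0.041, edgeR adjusted p = 4.85e-05).

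Cd63, a tetraspanin of late endosomes (ENSMUSG00000025351, chromosome 10, 128908919 to 128912816), ran against the trend of its role with genotype. It was at 244, 232 and 228 FPKM in the flox BMM libraries, 211, 212 and 209 in KO BMM, 206, 197 and 207 in flox OC and 168, 169 and 170.0 in KO OC. The 3 KO OC libraries were lowest, and KO lay below flox in each culture. KO lowered it by 0.15 in BMM (SE 0.030, edgeR adjusted p = 2.78e-05) and by 0.27 in OC (SE 0.030, edgeR adjusted p = 3.27e-10). Lamp1 rose with KO by 0.26 in BMM and 0.27 in OC, and Mcoln1, a lysosomal calcium channel, by 0.13 and 0.15. Cd68, the macrophage member of the LAMP family, rose in BMM (0.07) with 0.06 in OC (edgeR adjusted p = 0.0572), and Laptm5 rose in OC (0.10) with -0.01 in BMM (edgeR adjusted p = 0.769). The Cd68 rise was lost with DESeq2, with only the groups compared, and without flox BMM library 3, KO BMM library 1 or KO BMM library 3.

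The 10 glycosidases all fell with RANKL in both genotypes, and with KO 8 rose in BMM and 9 in OC. Among all tested genes, 37.8% fell with RANKL in flox and 35% in KO cells. With KO, 19.3% of them rose in BMM and 21.4% in OC. Gla, the alpha-galactosidase that is deficient in Fabry disease (ENSMUSG00000031266, chromosome X, 134588149 to 134601125), was at 40.6, 40.3 and 41.9 FPKM in the flox BMM libraries, 52.9, 51.6 and 50.5 in KO BMM, 23.6, 24.9 and 23.8 in flox OC and 33.2, 33.2 and 33.5 in KO OC. The 4 groups did not overlap, and each KO group lay above its flox counterpart. It had the largest KO rise of all members in BMM (log2 fold change 0.34, edgeR adjusted p = 1.53e-12 and SE 0.032) and rose in OC by 0.47 (SE 0.035, edgeR adjusted p = 6.21e-16). RANKL lowered it 1.698-fold in flox and 1.55-fold in KO cells.

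Glb1, the lysosomal beta-galactosidase (ENSMUSG00000045594, chromosome 9, 114401076 to 114474376), was at 32.9, 32.5 and 33.98 FPKM in the flox BMM libraries, 41.2, 40.1 and 41.9 in KO BMM, 20.2, 19.2 and 19.6 in flox OC and 25.5, 26.1 and 25.03 in KO OC. It showed the same order of groups as Gla. The KO rise was 0.31 in BMM (SE 0.036, edgeR adjusted p = 6.94e-10) and 0.38 in OC (SE 0.041, edgeR adjusted p = 9.58e-11). RANKL lowered it by 0.75 in flox and 0.68 in KO cells, and 7.31% of its exon bases are shared with Tmppe.

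Man2b1, the lysosomal alpha-mannosidase (ENSMUSG00000005142, chromosome 8, 85083269 to 85098739), was at 269, 272 and 262 FPKM in the flox BMM libraries, 242, 248 and 249.7 in KO BMM, 108, 106 and 105 in flox OC and 122, 123 and 121 in KO OC. KO lay below flox in BMM and above it in OC. It fell 2.51-fold with RANKL in flox (log2 fold change -1.33, edgeR adjusted p = 5.73e-40 and SE 0.026) and 2.02-fold in KO cells (-1.02, edgeR adjusted p = 4.86e-35 and SE 0.026). The genotype values were -0.12 in BMM (edgeR adjusted p = 0.000146) and 0.19 in OC (edgeR adjusted p = 2.95e-08), a difference of 0.31 (SE 0.037, edgeR adjusted p = 2.92e-09). Hexa, the alpha chain of hexosaminidase A, fell 2.33-fold with RANKL in flox cells and rose with KO by 0.09 and 0.24. Gaa, Gusb, Naglu and Manba, which act on glycogen, glucuronides, heparan sulfate and mannosides, rose with KO in both cultures by 0.14 to 0.24 in BMM and 0.16 to 0.37 in OC. Neu1, the lysosomal sialidase, rose in BMM (0.12) with 0.09 in OC (edgeR adjusted p = 0.0576). Idua, the iduronidase of heparan and dermatan sulfate breakdown, rose in OC (0.14), a call lost with DESeq2 and without flox OC library 2, with 0.03 in BMM (edgeR adjusted p = 0.664).

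The sulfatases included the steepest RANKL fall of the 46 genes. Arsb, arylsulfatase B, which removes sulfate from dermatan and chondroitin sulfate (ENSMUSG00000042082, chromosome 13, 93771679 to 93943016), was at 45.3, 45.4 and 44.7 FPKM in the flox BMM libraries, 51.8, 49.1 and 51.3 in KO BMM, 9.16, 9.45 and 9.23 in flox OC and 10.5, 10.4 and 10.3 in KO OC. OC libraries lay far below BMM libraries in both genotypes. RANKL lowered it 4.86-fold in flox (log2 fold change -2.28, edgeR adjusted p = 1.14e-43 and SE 0.037) and 4.87-fold in KO cells (-2.28, edgeR adjusted p = 6.42e-44 and SE 0.036). KO raised it by 0.17 in BMM (edgeR adjusted p = 8.43e-06) and 0.17 in OC (edgeR adjusted p = 0.00185). Of its exon bases, 48.8% are shared with Gm26527, and counting ignored strand, so these values are uncertain to that extent.

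Sgsh, the sulfamidase of heparan sulfate breakdown (ENSMUSG00000005043, chromosome 11, 119343425 to 119355536), had the largest genotype change of any member. It was at 20.7, 20.8 and 20.6 FPKM in the flox BMM libraries, 24.2, 25.4 and 25.02 in KO BMM, 5.13, 5.11 and 4.53 in flox OC and 8.78, 8.71 and 9.25 in KO OC. The 4 groups did not overlap, and KO OC stood clear above flox OC. KO raised it by 0.86 in OC, or 1.81-fold (SE 0.052, edgeR adjusted p = 6.32e-19), and by 0.26 in BMM (SE 0.036, edgeR adjusted p = 4.4e-08). RANKL lowered it 4.204-fold in flox and 2.79-fold in KO cells, and the difference of 0.59 passed (SE 0.064, edgeR adjusted p = 3.76e-10). Its count of 410 in 1 flox OC library was the lowest of any member in any library, and 21.6% of its exon bases are shared with Card14.

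Ids, the iduronate sulfatase that is deficient in Hunter syndrome (ENSMUSG00000035847, chromosome X, 70343069 to 70365084), was at 36.02, 33.2 and 34.4 FPKM in the flox BMM libraries, 32.1, 32.6 and 31.9 in KO BMM, 32.98, 32.9 and 32.4 in flox OC and 38.6, 37.5 and 39.1 in KO OC. KO OC libraries were above all others, while KO BMM libraries lay below flox BMM. RANKL raised it in KO cells (on the log2 scale 0.26, edgeR adjusted p = 4.61e-10 and SE 0.031), and its fall in flox cells (-0.08, edgeR adjusted p = 0.0264 and SE 0.031) was lost with DESeq2, with only the groups compared, and without flox BMM library 1 or flox OC library 3. With library size alone the flox value was a rise that passed (0.092, edgeR adjusted p = 0.0057). The difference between the effects was 0.33 (SE 0.044, edgeR adjusted p = 6.18e-08). Genotype values were -0.10 in BMM and 0.23 in OC, and the BMM call was lost with library size alone, with DESeq2 and without flox BMM library 1.

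Arsa, arylsulfatase A, which acts on sulfatide (ENSMUSG00000022620, chromosome 15, 89472476 to 89477425), had the lowest mean level of the members at 11.99 FPKM over all libraries. It was at 12.4, 13.2 and 13.5 FPKM in the flox BMM libraries, 14.1, 14.5 and 15.1 in KO BMM, 9.65, 9.05 and 9.35 in flox OC and 11.5, 10.4 and 11.2 in KO OC. KO lay above flox in each culture, and BMM above OC. Its KO rises were 0.17 in BMM (edgeR adjusted p = 0.00272) and 0.24 in OC (edgeR adjusted p = 9.42e-05), with 18.8% of its exon bases shared with C230037L18Rik. Galns, which acts on keratan sulfate, fell with RANKL by 0.92 and 0.80. Its KO rise in OC of 0.09 was lost in 8 alternatives (RLE size factors, DESeq2, a stricter filter, and without flox OC library 1, 2 or 3 or KO OC library 2 or 3).

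**Figure D4:**
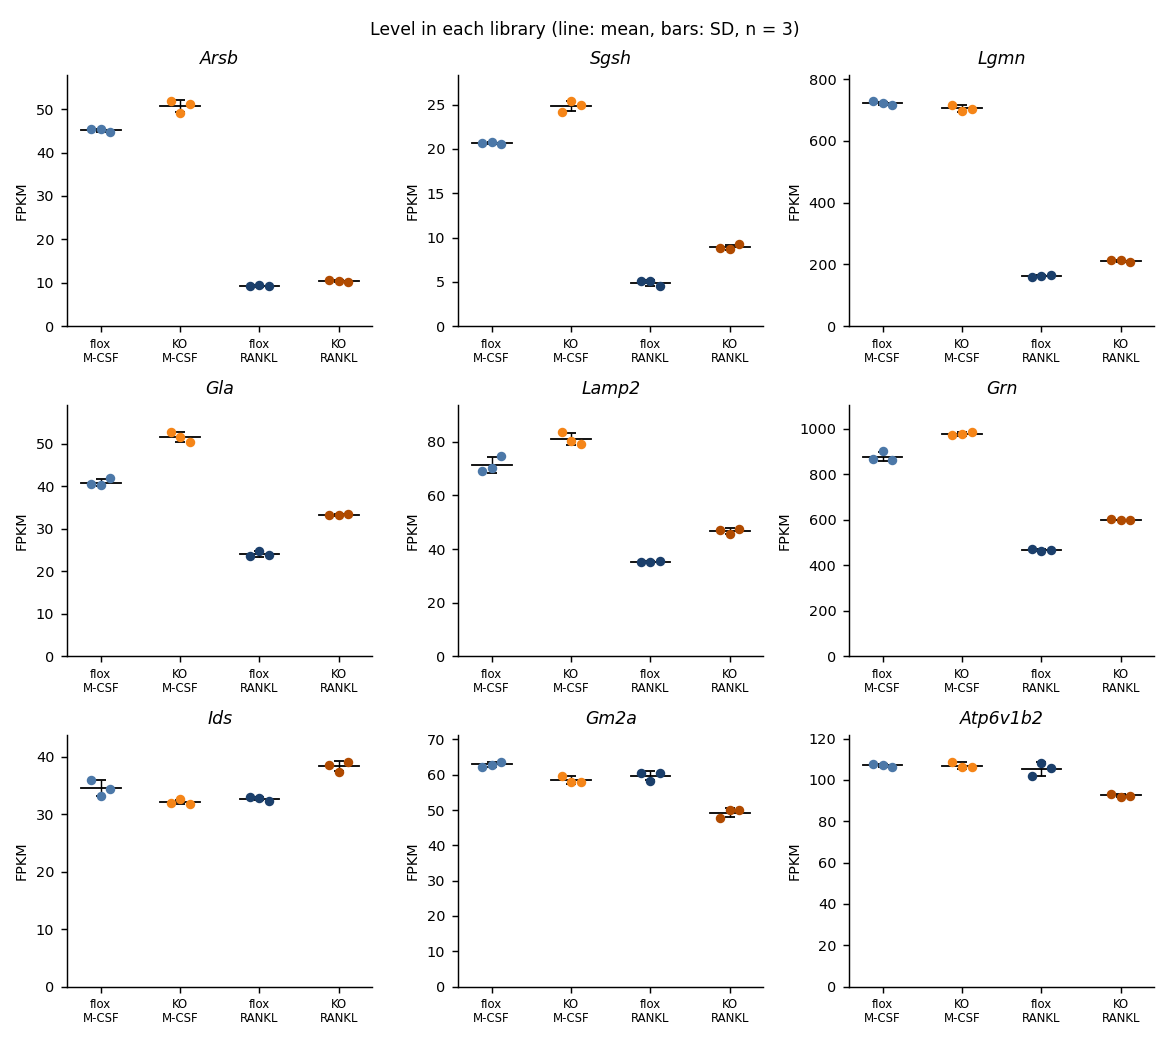
FPKM of 9 members in each library (points; line and bars, mean and SD, n = 3; axes start at 0). Arsb, Sgsh and Lgmn drop steeply with RANKL, Gla, Lamp2 and Grn drop less and are higher in KO, and Ids, Gm2a and Atp6v1b2 differ mainly in KO OC.

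Psap, the precursor of the saposins that present lipids to hydrolases (ENSMUSG00000004207, chromosome 10, 60277627 to 60302597), was the most abundant member at 2021 FPKM over all libraries. It was at 2522, 2564 and 2447 FPKM in the flox BMM libraries, 2721, 2677 and 2732 in KO BMM, 1348, 1335 and 1326 in flox OC and 1529, 1526 and 1526 in KO OC. The 4 groups did not overlap. RANKL lowered it by 0.91 in flox (SE 0.024, edgeR adjusted p = 5.35e-35) and 0.83 in KO cells (SE 0.024, edgeR adjusted p = 3.67e-33). With KO it rose by 0.11 in BMM and 0.19 in OC.

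Sphingolipid genes next to it split by genotype. Smpd1, acid sphingomyelinase (ENSMUSG00000037049, chromosome 7, 105554360 to 105558388), was at 15.3, 16.7 and 16.6 FPKM in the flox BMM libraries, 20.1, 19.2 and 20.6 in KO BMM, 13.3, 12.3 and 13.4 in flox OC and 14.3, 13.3 and 14.9 in KO OC. KO BMM was highest, and the OC groups overlapped. KO raised it in BMM (log2 fold change 0.30, edgeR adjusted p = 1.7e-06 and SE 0.049), with 0.12 in OC (edgeR adjusted p = 0.059). Asah1, acid ceramidase (ENSMUSG00000031591, chromosome 8, 41340197 to 41374773), was at 106, 105 and 111 FPKM in the flox BMM libraries, 102, 97.95 and 99.9 in KO BMM, 76.2, 78.2 and 80.9 in flox OC and 77.97, 78.3 and 81.4 in KO OC. It was lower in KO BMM than in flox BMM (-0.11, edgeR adjusted p = 0.00207 and SE 0.029), and the OC groups overlapped (0.02, edgeR adjusted p = 0.726). RANKL lowered Smpd1 by 0.32 and 0.50 and Asah1 by 0.46 and 0.33 in flox and KO cells.

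Gm2a, the activator that lifts ganglioside GM2 to hexosaminidase A (ENSMUSG00000000594, chromosome 11, 55098115 to 55113029), had the largest KO fall of the members in OC. It was at 62.3, 62.8 and 63.7 FPKM in the flox BMM libraries, 59.7, 57.8 and 58.1 in KO BMM, 60.5, 58.4 and 60.5 in flox OC and 47.7, 50.1 and 49.97 in KO OC. The KO OC libraries were lowest, and the other 3 groups lay close together. KO lowered it by 0.28 in OC (SE 0.029, edgeR adjusted p = 2.74e-11) and 0.10 in BMM (SE 0.029, edgeR adjusted p = 0.00276). RANKL lowered it by 0.25 in KO cells and by 0.07 in flox cells, where the call was lost with DESeq2, with only the groups compared and without flox OC library 2. With library size alone the flox value was a rise that passed (0.095, edgeR adjusted p = 0.00253). Ppt1, a thioesterase that removes palmitate from proteins, fell with RANKL by 0.94 and 0.75 and rose with KO in OC by 0.26. Its smaller rise in BMM (0.08) was lost with DESeq2, with only the groups compared, and without flox BMM library 2, KO BMM library 1 or KO BMM library 3.

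Lgmn, the asparaginyl endopeptidase legumain (ENSMUSG00000021190, chromosome 12, 102394084 to 102439813), was at 728, 722 and 717 FPKM in the flox BMM libraries, 716, 696 and 704 in KO BMM, 159.7, 163 and 165 in flox OC and 213, 213 and 207 in KO OC. RANKL libraries lay far below M-CSF libraries, and in OC the KO libraries stood above flox. RANKL lowered it 4.44-fold in flox (log2 fold change -2.15, edgeR adjusted p = 2.93e-48 and SE 0.027) and 3.34-fold in KO cells (-1.74, edgeR adjusted p = 1.11e-44 and SE 0.026). KO raised it by 0.38 in OC (edgeR adjusted p = 9.55e-17) with -0.03 in BMM (edgeR adjusted p = 0.298), and the difference passed (0.41, SE 0.036, edgeR adjusted p = 1.59e-12).

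Dpp7, a dipeptidyl peptidase (ENSMUSG00000026958, chromosome 2, 25352276 to 25356359), was at 34.6, 34.5 and 33.4 FPKM in the flox BMM libraries, 34.96, 36.2 and 36.7 in KO BMM, 36.7, 37.2 and 34.9 in flox OC and 37.8, 38.8 and 38.1 in KO OC. All groups lay within a narrow range. RANKL raised it by 0.09 in flox (SE 0.034, edgeR adjusted p = 0.0181) and 0.09 in KO cells (SE 0.033, edgeR adjusted p = 0.016). Both calls were lost with DESeq2 and with no filter on low counts, the flox call also without flox BMM library 3, flox OC library 1 or flox OC library 2, and the KO call also without KO BMM library 1 or KO OC library 2. Grn, the progranulin precursor of lysosomal granulins, fell with RANKL by 0.91 in flox and 0.71 in KO cells and rose with KO by 0.16 in BMM and 0.36 in OC. Tpp1, a tripeptidyl peptidase, and the serine carboxypeptidase Scpep1 rose with KO by 0.19 and 0.24 in BMM and by 0.22 and 0.23 in OC, with RANKL falls of 0.62 and 0.93 in flox cells.

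The RANKL effect itself differed between genotypes for 20 members. In 14 the KO minus flox difference was above 0 (called higher) and in 6 it was below 0 (called lower). Of all tested genes, 12.3% were called higher and 9.54% lower. The higher calls were smaller RANKL falls in KO cells, except for Ids. The member median was 0.02 and that of all genes 0.01. With library size alone the split was 10 higher and 11 lower, against 1312 higher and 1715 lower among all 13030 tested genes. Without flox BMM library 1 the lower calls numbered 10. By role, the higher calls comprised 4 glycosidases, 2 sulfatases (Sgsh and Ids), 2 lipid genes, 2 peptidase and progranulin genes, 2 membrane proteins and 2 V0 and accessory genes. The lower calls comprised 3 V1 subunits, Atp6v0b, Atp6v0c and Gm2a.

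Members with the TCACGTG motif moved in the same main directions as those without it. Of the 14 with the motif, 11 fell and 3 rose with RANKL in flox cells (median -0.61), and of the 26 without it 25 fell and 1 rose (median -0.52). KO against flox gave 11 higher and 1 lower with the motif in BMM (median 0.19), and 16 higher and 7 lower without it (median 0.10). In OC it gave 11 higher and 1 lower with it (median 0.23), and 16 higher and 2 lower without it (median 0.15). Among all tested genes, 37.8% fell and 37% rose with RANKL in flox cells. With KO, 19.3% of them rose and 20.6% fell in BMM, and 21.4% rose and 19.9% fell in OC. The difference between the members with and without the motif was not tested.

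Other genes of the pathway moved in the same main direction with RANKL. For this and the next paragraph, 37.8% of all tested genes fell and 37% rose with RANKL in flox cells. With KO, 19.3% of all tested genes rose and 20.6% fell in BMM, and 21.4% rose and 19.9% fell in OC. Of 32 further hydrolases and cofactors, 26 fell and 2 rose in flox cells, with the largest changes in Hgsnat (-2.11), the acetyltransferase of heparan sulfate breakdown, Pla2g15 (-1.88), a phospholipase, and Galc (-1.57), which acts on galactosylceramide. With KO, 11 rose and 8 fell in BMM, led by Pcyox1 (0.50), Arsg (0.37) and Hyal1 (0.35), and 13 rose and 2 fell in OC, with Pcyox1 (0.51) and Naaa (0.44) among the largest changes. Of 31 tested further membrane proteins and transporters, 22 fell and 5 rose with RANKL in flox cells, led by the sorting receptor Sort1 (-2.20), Mcoln3 (-1.39) and Abcb9 (-1.23). With KO, 11 rose and 7 fell in BMM, led by Sort1 (-1.24), Mcoln3 (0.75) and Slc11a2 (-0.47), and 9 rose and 6 fell in OC, led by Mcoln3 (1.11), Sort1 (-0.91) and Abcb9 (0.81). The medians of these membrane genes with KO were 0.05 in BMM and 0.02 in OC, against 0.00 and 0.01 for all tested genes.

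Of 20 further V-ATPase subunits and assembly factors, 11 passed the filter, and with RANKL in flox cells 8 of these fell and 3 rose, led by Atp6v1g2 (-1.29), Ncoa7 (-0.90) and Oxr1 (-0.69). Atp6v1g2 had low levels, with means of 6.06 CPM in flox BMM and 2.48 in flox OC. With KO in BMM 3 fell and 1 rose, led by Dmxl2 (-1.26), a rabconnectin that assists pump assembly, Atp6v0d2 (-1.10) and Wdr7 (0.21). In OC 3 rose and 3 fell, led by Atp6v0d2 (-1.42), Dmxl2 (-0.81) and Tcirg1 (-0.39). The median of these 11 genes was -0.26 with RANKL in flox cells, and with KO -0.01 in BMM and 0.05 in OC.

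Transcripts of the factors that bind the motif changed too. With RANKL in flox cells Tfec rose (1.21), Tfe3 (-0.71) and Tfeb (-0.41) fell, and Mitf was at 0.04 (edgeR adjusted p = 0.28). With KO in BMM, Tfeb (-0.31), Mitf (-0.26) and Tfe3 (-0.15) fell and Tfec rose (0.25). In OC, Tfec (-0.54), Mitf (-0.54) and Tfeb (-0.14) fell, and Tfe3 was at 0.02 (edgeR adjusted p = 0.632).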

How the data were processed

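The deposited files hold raw read counts per gene with no normalization. STAR 2.0.4b and GRCm38 are the aligner and build per the submitters' processing notes. Per the file headers, featureCounts 1.4.5-p1 counted them on Ensembl release 76 with strand setting 0, which ignores strand. The exon length column of the deposited files, in bases, served for FPKM. Symbols came from GENCODE M21 and matched 40254 of 41388 identifiers. The other 1134 held 0.136% of counts and stayed in the library sizes. Libraries held 18489873 to 21667237 counts.

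edgeR 4.0.16 in R 4.3.3 (quasi-likelihood F test, TMM, default filter, robust) was fitted to all 12 libraries with 4 group means, over 13030 genes and 5 comparisons. Calls had an adjusted p under 0.05 (Benjamini-Hochberg). FPKM were TMM-scaled CPM per 1000 exon bases. Alternatives were other scalings, DESeq2 1.42.0, other filters, a replicate block and leaving out each library.

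The members and the lists were chosen with earlier results of these data known. Detailed values are given for up to 4 called members with the largest rises and 4 with the largest falls per comparison, and for the members with the highest and lowest mean FPKM. Of each further list, up to 3 called genes with the largest change are named, except that 1 is not reported here. Members named beside these, such as the rest of each role, account for all 46. Replicate pairs of a group differed by more than sampling noise (chi-square per degree of freedom 1.23 to 5.05), and each library was counted once.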

Additional observations from a re-analysis of the deposited data

Results flagged for a closer look

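The RANKL effect differed between KO and flox cells for 20 members by edgeR's interaction test. Among all tested genes, 12.3% were called higher and 9.54% lower in it. DESeq2 called 10 members higher and 5 lower, against 994 and 747 of 23565 genes. The values are KO minus flox differences of log2 fold changes. The difference was positive for Sgsh (0.59), Lgmn (0.41), Ids (0.33), Man2b1 (0.31), Atp6v0a1 (0.26), Lamp2 (0.22), Grn (0.21), Ppt1 (0.19), Gaa (0.17), Hexa (0.15), Gla (0.13), Asah1 (0.12), Laptm5 (0.11) and Atp6ap1 (0.10). These genes fell less with RANKL in KO than in flox cells, except Ids, which rose in KO cells. The difference was negative for Atp6v1d (-0.22), Atp6v1b2 (-0.18), Atp6v0c (-0.18), Gm2a (-0.17), Atp6v1c1 (-0.14) and Atp6v0b (-0.13). Of these, Atp6v0b and Atp6v0c rose less in KO cells, and the others fell more. The calls for Gla, Atp6ap1, Asah1, Gaa, Laptm5, Atp6v1c1, Atp6v0b and Atp6v0c were each lost when at least 1 library was left out. Those for Gla and Atp6ap1 were lost without most single libraries. They were also lost with library size alone, RLE size factors, DESeq2, no filter on low counts and a replicate block.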

How the results depend on the processing

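Library size alone gave RANKL medians of -0.31 in flox and -0.34 in KO cells, a KO median of 0.15 in BMM and a difference median of -0.011, with 8 members higher with RANKL in flox cells and 11 lower in the difference of RANKL effects. It also turned single values with RANKL positive: Atp6ap2 to 0.040, Ids to 0.092, Atp6v1g1 to 0.080, Atp6v1b2 to 0.14 and Gm2a to 0.095 in flox, and Atp6v1h to 0.081, Atp6ap2 to 0.057 and Atp6v0e to 0.13 in KO cells. In flox cells the rises of Ids, Atp6v1b2 and Gm2a passed (edgeR adjusted p = 0.0057, 2.65e-06 and 0.00253). In KO cells those of Atp6v1h and Atp6v0e passed (edgeR adjusted p = 0.0273 and 9.42e-05). DESeq2 gave 2 members higher with RANKL in flox cells, as did the absence of a low-count filter. Among all genes, the flox RANKL split was 4822 higher and 4925 lower, and 6321 and 3737 with library size alone. Beyond the assumptions of each scaling, the cause was not tested.

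Leaving out 1 library at a time gave 3 higher and 38 to 40 lower members with RANKL in flox (median -0.50 to -0.46) and 3 to 4 higher and 40 lower in KO cells (-0.49 to -0.47). KO against flox gave 26 to 31 higher and 7 to 9 lower in BMM (0.11 to 0.12) and 26 to 29 higher and 4 lower in OC (0.15 to 0.17). The difference gave 10 to 14 higher and 4 to 10 lower (0.01 to 0.03), with 10 lower without flox BMM library 1. Calls of single members were lost 76 times in these settings (20 genes) and 54 times in the others (22 genes), and were gained 18 times (9 genes) and 15 times (9 genes).

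Same-numbered libraries did not deviate together (correlations -0.035 to 0.033). These deviations include counting noise, so the check gave no sign of pairing by number but cannot exclude it. With a replicate block, 4 members were higher and 40 lower with RANKL in each genotype (medians -0.48 and -0.48), 30 and 9 with KO in BMM (0.11), 28 and 4 in OC (0.16), and 12 and 6 in the difference (0.02). A fit of only the groups compared was not run for the difference, which uses all 4.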
